A study of Homo sapiens with 6 samples.

Results

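The 9 genes examined here encode enzymes that make deoxynucleotides and thymidylate, and they were taken from the RNA-seq table by exact gene symbol. Each of the 9 was found in exactly 1 row, carrying no other symbol, out of 41656 rows of which 27678 had a symbol. The libraries came from MCF10A cells, an established, non-tumorigenic line of human breast epithelial cells. In 1 group of 3 samples the cells received a non-targeting siRNA (siNT), and in the other group of 3 samples they received siRNAs against PAX9 (siPAX9), a paired-box transcription factor of RNA polymerase II. All cells were transfected with 30 nM of siRNA for 72 hours, so the knockdown is transient and both groups share the transfection, and the poly(A)+ RNA was sequenced as single-end reads. The authors' deposited table gives 1 FPKM per gene and group (a read density, corrected for transcript length and library size), combined over the 3 samples. No value per sample is in it, so no replicate error or test could be computed from it, and the test results of the authors that it also lists are not used here. Every difference below describes the pooled values.

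Deoxynucleotides are the building blocks of DNA. Ribonucleotide reductase makes them by removing an oxygen from ribonucleotides, and it needs a large catalytic subunit (RRM1) together with a small subunit that carries a radical (RRM2 in dividing cells, RRM2B in resting or damaged cells). Thymidylate, the nucleotide particular to DNA, is made from dUMP by thymidylate synthase (TYMS), and dUMP comes in part from dUTP through the dUTPase DUT, which also keeps uracil out of DNA. Thymidine kinase (TK1) and deoxycytidine kinase (DCK) recover nucleosides by salvage, and DTYMK phosphorylates dTMP from both routes. CAD and UMPS, at the start and the end of the pathway to UMP, supply all pyrimidines. Several of these mRNAs are made mainly when cells enter and pass S phase. In a bulk sample, fewer cells in S phase and less mRNA per cell cannot be told apart.

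The column labels were checked on the targeted gene. PAX9 was at 2.80 FPKM in siNT against 0.325 in siPAX9, a log2 ratio of -3.10 for siPAX9 over siNT. All 8 epithelial markers examined had an FPKM of at least 1, with a summed FPKM of 3686 in siNT and 4280 in siPAX9. KRT5 (1558 in siNT, 1807 in siPAX9), KRT17 (1718 and 2088) and CDH1 (45.3 and 124.4) were higher in siPAX9, and EPCAM (34.3 and 16.7) and KRT18 (211.7 and 118.9) were lower. Of the markers of other cell types, 2 of 7 for fibroblasts, 2 of 5 for leukocytes and 2 of 4 for endothelium reached 1 FPKM in either group. Their summed FPKM in siNT and siPAX9 was 6.40 and 42.2 for fibroblasts, 17.8 and 60.4 for leukocytes, and 3.38 and 2.46 for endothelium. COL3A1 and CD3E were listed at 0 in both groups, and PTPRC and VWF stayed under 0.1. DCN (5.85 in siNT, 37.9 in siPAX9), COL1A1 (0.454 and 4.13), CD14 (14.4 and 56.5) and KDR (0.798 and 1.94) were higher in siPAX9, PECAM1 (2.58 and 0.495) was lower, and their part in the results below was not tested.

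All 9 genes had a lower FPKM in siPAX9 than in siNT, and 4 of them (RRM1, TK1, TYMS and DTYMK) were at least 2-fold lower. Split at this limit, these 4 lay between -1.22 and -1.07 on the log2 scale and the other 5 between -0.55 and -0.29. As background, 12965 loci had a symbol and reached 1 FPKM in whichever group was higher, and of these 7.25% were at least 2-fold lower and 7.79% at least 2-fold higher. The members' 4 of 9 is 44.4%, and 0 of 9 were at least 2-fold higher. At a fold of 4, 0 of 9 were lower or higher, against 1.71% of the named loci lower and 3.22% higher. The median log2 ratio was -0.55 for the members and -0.06 for all these loci, of which 54.6% were lower in siPAX9.

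**Figure D1:**
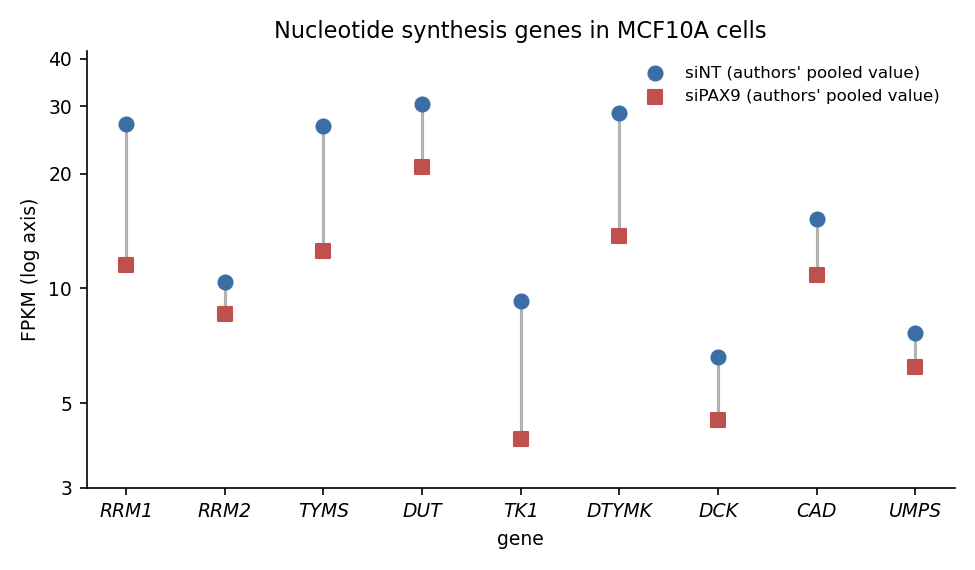
FPKM of the 9 genes on a log axis, with the authors' pooled siNT value as a circle and the pooled siPAX9 value as a square, joined by a line; there are no error bars because the table holds no value per sample. Each square lies below its circle, and the lines are longest for RRM1, TK1, TYMS and DTYMK.

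The 2 subunits of ribonucleotide reductase differed in how far they moved. RRM1, the catalytic subunit (chromosome 11, 4115915 to 4160155 on hg19, plus strand, 19 exons), stood at 26.9 FPKM in siNT against 11.5 in siPAX9. This is 57.1% lower and the largest decrease of the 9, a log2 ratio of -1.22, and 4.94% of the named loci had a lower ratio. RRM2, the radical-bearing subunit (chromosome 2, 10262695 to 10271546, plus strand, 10 exons), stood at 10.4 FPKM in siNT against 8.55 in siPAX9. That is the smallest decrease of the 9, a log2 ratio of -0.29, and 32.9% of the named loci had a lower ratio. RRM2B, the alternative small subunit and a target of p53, was not one of the 9 and went the other way. Its FPKM was 51.3 in siNT and 82.2 in siPAX9, a log2 ratio of 0.68.

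Because FPKM is given per length, levels of different genes can be set side by side within a group, and such a ratio does not depend on how the libraries were scaled. The ratio of RRM2 to RRM1 was 0.387 in siNT and 0.741 in siPAX9, a 1.91-fold difference. The ratio of RRM2B to RRM2 was 4.92 in siNT and 9.62 in siPAX9. RRM2B thus had the higher FPKM of the small subunits in both groups. The RRM2 value is uncertain where reads could have been placed at a matching pseudogene locus, described below. No spliced aligner is named either, and the effect on these ratios and the following sum was not tested. The summed FPKM of RRM2 and RRM2B, added after the values were seen, was 61.7 in siNT and 90.8 in siPAX9, higher in siPAX9 where RRM1 was lower.

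The genes of thymidylate synthesis were lower in both the de novo and the salvage arm. TYMS, which methylates dUMP to dTMP (chromosome 18, 657653 to 673578 in the GENCODE annotation, plus strand, 7 exons), stood at 26.6 FPKM in siNT against 12.6 in siPAX9, a log2 ratio of -1.08. TK1, the cytosolic thymidine kinase (chromosome 17, 76170160 to 76183285, minus strand, 7 exons), stood at 9.27 FPKM in siNT against 4.02 in siPAX9, a log2 ratio of -1.21. TK1 went from the middle of the named loci in siNT, where 47.5% had a lower FPKM, to the lower part in siPAX9, where 25.2% did. DTYMK, the kinase that acts on dTMP from both arms (chromosome 2, 242615157 to 242626383, minus strand, 5 exons), stood at 28.8 FPKM in siNT against 13.7 in siPAX9. Its log2 ratio of -1.07 was the closest of the 4 to the 2-fold limit, and it was -0.99 after the ratios were centred on the median of the 11890 named loci at 1 FPKM or more in both groups. Centred on the median of all 12965 background loci, a setting chosen after seeing the data, it was -1.01. TYMS was at -1.005 after the first centring and -1.021 after the second, also close to the limit. The mitochondrial thymidine kinase TK2 was at 6.89 in siNT and 6.01 in siPAX9, so that the ratio of TK1 to TK2 was 1.35 in siNT and 0.668 in siPAX9.

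DUT, the dUTPase (chromosome 15, 48623621 to 48635570, plus strand, 7 exons), had the highest FPKM of the 9 in both groups, with 30.4 in siNT and 20.8 in siPAX9. Its log2 ratio was -0.55, and the ratio of DUT to DTYMK was 1.06 in siNT and 1.51 in siPAX9. DCK, the salvage kinase for deoxycytidine (chromosome 4, 71859265 to 71896629, plus strand, 7 exons), stood at 6.59 FPKM in siNT, the lowest of the 9 there, against 4.51 in siPAX9. Its log2 ratio of -0.55 was almost that of the mitochondrial deoxyguanosine kinase DGUOK, -0.54, and the ratio of DCK to DGUOK was 0.120 in siNT and 0.119 in siPAX9.

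The genes of UMP synthesis were among the members with the smallest decreases. CAD, which carries the first 3 steps of pyrimidine synthesis in 1 protein (chromosome 2, 27440258 to 27466660, plus strand, 44 exons), stood at 15.2 FPKM in siNT against 10.9 in siPAX9, a log2 ratio of -0.49. UMPS, which carries the last 2 steps to UMP (chromosome 3, 124449213 to 124468119, plus strand, 6 exons), stood at 7.66 FPKM in siNT against 6.21 in siPAX9, a log2 ratio of -0.30. DHODH, the mitochondrial enzyme between them, was at 6.62 and 3.73, a log2 ratio of -0.83. The ratio of CAD to UMPS was 1.99 in siNT and 1.75 in siPAX9.

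**Figure D2:**
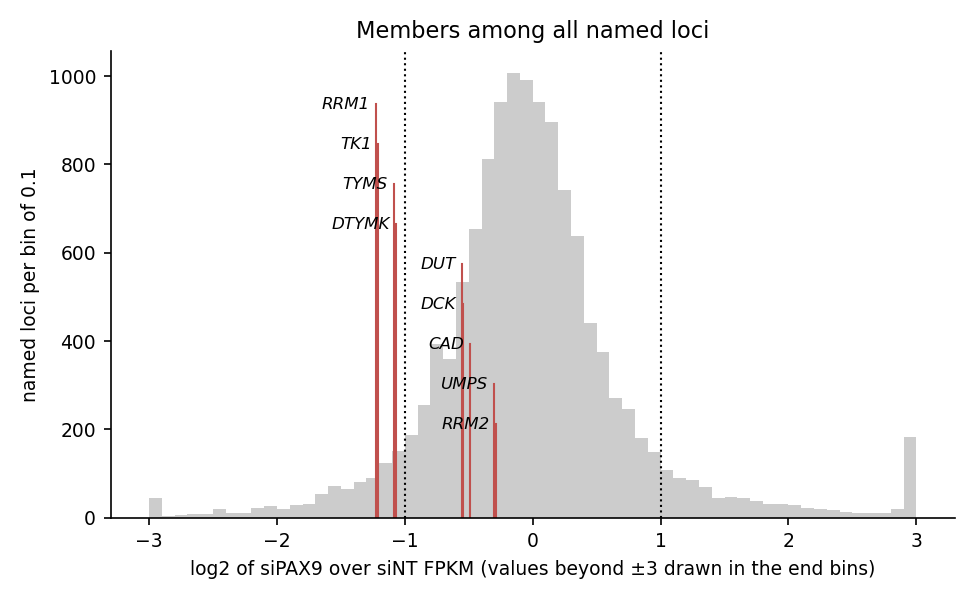
Log2 ratios of siPAX9 over siNT FPKM for the named loci that reached 1 FPKM in whichever group was higher (grey bars, bins of 0.1 on the horizontal axis, counts of loci on the vertical axis, values beyond 3 either way in the end bins, loci listed at 0 in 1 group left out), with each of the 9 genes as a red line whose height only separates the names. The dotted lines mark a fold of 2, and RRM1, TK1, TYMS and DTYMK lie beyond the left one.

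**Figure D3:**
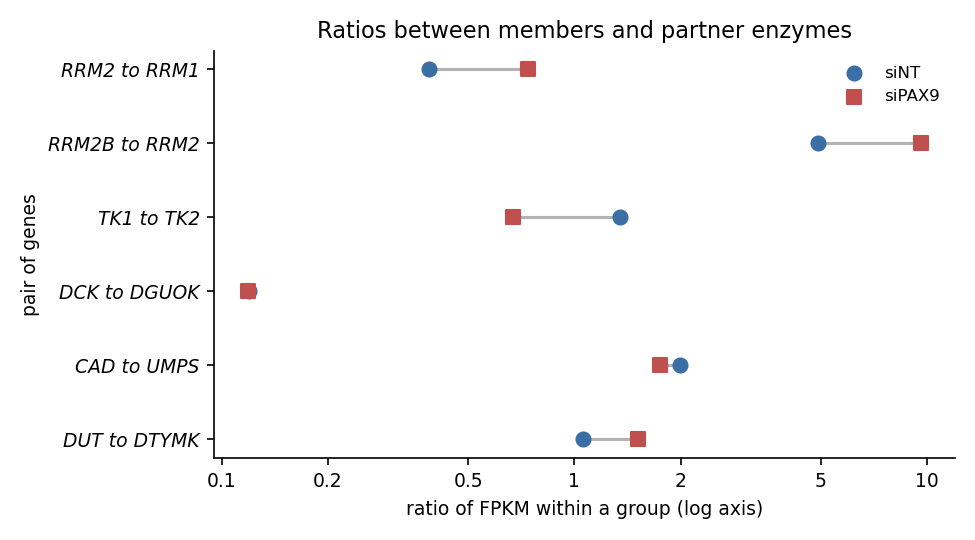
Ratios of the FPKM of 2 genes within siNT (circles) and within siPAX9 (squares) on a log axis, 1 pair of genes per line. The ratios of RRM2 to RRM1 and RRM2B to RRM2 were higher in siPAX9, that of TK1 to TK2 was lower, and for DCK to DGUOK the symbols cover each other.

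In the levels themselves, the 9 genes spanned a 4.61-fold range in siNT, from 6.59 (DCK) to 30.4 (DUT), with a median of 15.2. In siPAX9 they spanned a 5.17-fold range, from 4.02 (TK1) to 20.8 (DUT), with a median of 10.9. Since no spread is known, neighbours in these orders cannot be called different.

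The table also held loci without a symbol, and 13747 of them, those of up to 5000 bases, were compared with the transcripts of the 9 genes, keeping matches within the coding sequence. With at least 90% identity over at least 80% of the locus, 3 loci matched, and each overlapped an annotated processed pseudogene of the gene it matched. The locus at DUTP5 (chromosome 6, 86136501 to 86136635) stood at 1251 FPKM in siNT against 812.5 in siPAX9, a log2 ratio of -0.62 beside -0.55 for DUT. The locus at RRM2P2 (chromosome 1, 161348644 to 161348820) stood at 43.8 FPKM in siNT against 36.8 in siPAX9, a log2 ratio of -0.25 beside -0.29 for RRM2. The locus at TYMSP2 (chromosome 19, 36174666 to 36174752) stood at 1555 FPKM in siNT against 427.4 in siPAX9, a log2 ratio of -1.86 beside -1.08 for TYMS. Each locus was lower in siPAX9, as its gene was, and the TYMSP2 locus had the larger decrease of its pair. The loci are 87 to 177 bases long, so the length correction in FPKM is large and their levels were not set against those of the genes. The matched stretch of the gene's transcript held 2 exon junctions for DUT and 1 each for RRM2 and TYMS, and a processed pseudogene holds the exons joined. The values of DUT, RRM2 and TYMS are therefore uncertain where reads could have been placed at either locus, and how many were was not tested.

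The matched stretches are given here, in the sense of the gene, because they show how closely these loci resemble the genes. Capitals mark bases that differ from the gene's transcript, 8 in DUTP5 with 1 gap, 5 in RRM2P2 and 6 in TYMSP2 with 1 gap.
DUTP5 stretch, chr6:86136502-86136630 on hg19, minus strand: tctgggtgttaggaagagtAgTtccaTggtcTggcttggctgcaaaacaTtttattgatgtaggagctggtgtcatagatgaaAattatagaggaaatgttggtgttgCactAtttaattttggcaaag
RRM2P2 stretch, chr1:161348644-161348820 on hg19, minus strand: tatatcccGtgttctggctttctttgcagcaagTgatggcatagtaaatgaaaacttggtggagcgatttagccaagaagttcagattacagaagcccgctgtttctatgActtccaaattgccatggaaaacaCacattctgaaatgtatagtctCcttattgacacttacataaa
TYMSP2 stretch, chr19:36174667-36174752 on hg19, minus strand: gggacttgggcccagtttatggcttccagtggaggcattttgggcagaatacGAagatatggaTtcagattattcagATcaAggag

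**Figure D4:**
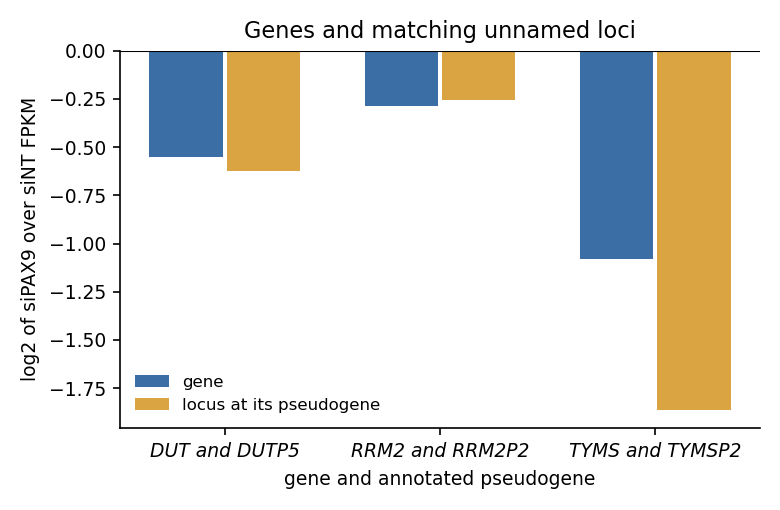
Log2 ratio of siPAX9 over siNT FPKM for DUT, RRM2 and TYMS (blue) and for the unnamed locus at an annotated pseudogene of each (yellow). The bars of a pair are close for DUT and RRM2, and the TYMSP2 locus reaches -1.86 where TYMS reaches -1.08.

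Of the 13 annotated pseudogenes of the 9 genes, 3 held such a locus, 7 overlapped only rows of named genes and 3 overlapped no row. The row of TYMS also shares its position with other genes. Its position in the table, chromosome 18 from 596998 to 712664, is that of a cluster with ENOSF1, TYMSOS and CLUL1, of which ENOSF1 and TYMSOS overlap TYMS on the opposite strand in the annotation. ENOSF1 was at 14.3 in siNT and 9.52 in siPAX9, a log2 ratio of -0.59. TYMSOS was at 3.14 and 2.52, a log2 ratio of -0.31. Whether the libraries kept strand is not given in the sources used here, so reads in the overlaps cannot be told apart. CLUL1 was at 0.261 and 0.304, and MIR544B, which shares the position of UMPS, was listed at 0.

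For the promoters, the 250 bases before the start nearest to that of the canonical transcript were taken from RefSeq (GRCh38.p14) and placed on hg19 by exact match, for 9 of 9 genes. They were searched on both strands for CCAAT, the box bound by NF-Y, for TTTGAA, the letters of the cell cycle element CHR, for GGGCGG, the SP1 box, and for TTGGCGC and TTCGCGC, parts of E2F sites. CCAAT was found in 5 of the 9 promoters, with 3 sites in RRM2, 2 each in TK1 and DTYMK, and 1 each in RRM1 and CAD, against 32.0% of 35116 promoters of the same length. GGGCGG was found in 6 of 9 against 42.6% of all promoters, and TTTGAA in 2 of 9 (RRM1 and UMPS) against 13.3%. TTGGCGC and TTCGCGC were found in 0 of 9, against 2.56% and 1.85%. Other forms of E2F sites were not searched for, so no window can be said to lack one. The table lists 14 starts for the 9 genes, and the windows before the other starts differed. The other start of RRM2 had 1 CCAAT, 1 GGGCGG and 1 TTGGCGC, and the other start of TK1 had no CCAAT and 2 GGGCGG. Of the 3 other starts of DUT, 1 had 2 TTTGAA, 2 GGGCGG and 1 TTGGCGC, 1 had 2 GGGCGG and 1 had no motif. The start used was 114 bases upstream of the canonical one for RRM1 and identical to it for the other genes. The motifs did not overlap each other in the 9 windows used. Of the 4 genes at least 2-fold lower, RRM1, TK1 and DTYMK held CCAAT and TYMS held none of the motifs searched. RRM2, with the smallest decrease, had the most CCAAT sites at the start used. A match describes the letters only.

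The promoters of RRM1, TK1 and DTYMK are shown with that of RRM2, as the genes with CCAAT among those at least 2-fold lower and the member with the smallest decrease. They run 5′ to 3′ in the direction of the gene, and capitals mark the motifs named above, in either orientation.
RRM1 promoter, chr11:4115665-4115914 on hg19, plus strand: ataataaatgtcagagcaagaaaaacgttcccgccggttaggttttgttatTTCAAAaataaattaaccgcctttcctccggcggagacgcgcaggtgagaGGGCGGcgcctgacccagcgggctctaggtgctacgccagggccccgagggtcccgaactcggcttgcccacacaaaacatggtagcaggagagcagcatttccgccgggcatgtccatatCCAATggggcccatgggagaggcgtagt
RRM2 promoter, chr2:10262616-10262865 on hg19, plus strand: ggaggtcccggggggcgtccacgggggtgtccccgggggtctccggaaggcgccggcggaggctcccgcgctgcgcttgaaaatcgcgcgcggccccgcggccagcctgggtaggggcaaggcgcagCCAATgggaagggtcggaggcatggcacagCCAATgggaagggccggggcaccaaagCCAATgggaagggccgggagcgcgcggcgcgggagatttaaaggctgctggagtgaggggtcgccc
TK1 promoter, chr17:76183134-76183383 on hg19, minus strand: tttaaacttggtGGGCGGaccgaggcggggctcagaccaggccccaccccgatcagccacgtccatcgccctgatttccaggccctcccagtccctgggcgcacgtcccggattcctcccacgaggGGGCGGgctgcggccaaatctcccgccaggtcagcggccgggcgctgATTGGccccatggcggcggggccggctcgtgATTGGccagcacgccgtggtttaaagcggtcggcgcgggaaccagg
DTYMK promoter, chr2:242626231-242626480 on hg19, minus strand: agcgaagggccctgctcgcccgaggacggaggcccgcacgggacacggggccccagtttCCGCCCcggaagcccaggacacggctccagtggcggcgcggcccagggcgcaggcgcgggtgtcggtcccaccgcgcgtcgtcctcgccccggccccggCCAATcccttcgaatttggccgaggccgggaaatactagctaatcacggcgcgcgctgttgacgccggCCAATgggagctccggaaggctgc

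The other genes of the pathway were read from lists, and these are described by counts and medians beside those of all named loci given above. Of the other enzymes of pyrimidine and deoxynucleotide synthesis, 22 were in the table and 21 had an FPKM of at least 1, CDA being the exception. In siPAX9, 17 of the 21 were lower, 0 were at least 2-fold lower, and the median log2 ratio was -0.39. CMPK2, a mitochondrial UMP/CMP kinase that interferon induces, was at 0.222 in siNT and 2.00 in siPAX9 and was the 1 gene at least 2-fold higher. NME1 and NME2, the main nucleoside diphosphate kinases, share 1 row, at 901.7 and 550.3, which is counted for each of them among the 21.

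Of 9 folate enzymes and carriers, which keep thymidylate synthase supplied with its methyl donor, all 9 were lower, 4 were at least 2-fold lower, and the median was -0.77. The 4 were SHMT2 (151.4 in siNT, 41.0 in siPAX9), GGH (16.2 and 5.22), MTHFD2 (112.3 and 36.5) and MTHFD1L (18.2 and 8.87). SHMT2, MTHFD2 and MTHFD1L belong to the mitochondrial branch of the folate cycle, and GGH trims folate polyglutamates. MTHFD1L was under the 2-fold limit both after centring and with 1 added to each FPKM. SHMT1, the cytosolic counterpart of SHMT2, was at 14.5 and 12.0.

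Of 15 genes of purine synthesis and salvage, all 15 were lower and 5 were at least 2-fold lower, with a median of -0.76. These were HPRT1, the salvage enzyme for hypoxanthine and guanine (33.2 and 10.6), ADSS (58.5 and 24.0) and ADSL (41.0 and 17.7), which make AMP, PRPS2 (24.7 and 11.2), which makes the ribose donor, and IMPDH2 (131.9 and 59.9), on the way to GMP. PPAT, the first step of the pathway, was at 17.6 and 14.7.

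Of 16 genes that break down deoxynucleotides and nucleosides, 11 were lower and 3 at least 2-fold lower, with a median of -0.39. DPYD, which starts the breakdown of uracil and thymine, was at 33.7 in siNT and 9.60 in siPAX9, a log2 ratio of -1.81. UPP1, uridine phosphorylase, was at 18.3 and 8.64, and NUDT1, which removes oxidised purine nucleotides, at 12.4 and 6.15, a ratio that was also under the 2-fold limit in both of these settings. SAMHD1, which hydrolyses dNTPs, was at 5.93 and 7.15.

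Of 7 genes of the thioredoxin and glutaredoxin systems, some of which return electrons to ribonucleotide reductase, 6 were lower, with a median of -0.17. The 7 include mitochondrial members of these systems. TXNRD1, the cytosolic thioredoxin reductase, was at 16.6 and 63.9, a log2 ratio of 1.94. Of 6 nucleoside and nucleotide carriers, 3 were lower and 3 higher, with a median of -0.02, and SLC29A3, a lysosomal nucleoside carrier, was at 2.38 and 5.19.

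DNA replication factors, which use the products of these enzymes, were read for comparison. Of 36, 35 were lower in siPAX9 and 14 (38.9%) at least 2-fold lower, with a median of -0.94 beside -0.55 for the 9 genes. With 1 added to each FPKM, 8 of the 36 were at least 2-fold lower, and 4 of the 9 genes still were. The 14 were CDT1, PRIM1, RFC3, MCM2, MCM5, MCM6, CDC45, GINS4, GINS2, CDC6, GINS1, MCM10, RFC4 and ORC6, from CDT1 at a log2 ratio of -2.46 to ORC6 at -1.02, which was under the limit after centring. POLE2, a subunit of DNA polymerase epsilon, was the 1 factor higher in siPAX9, at a log2 ratio of 0.10. The difference between the lists was not tested.

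**Figure D5:**
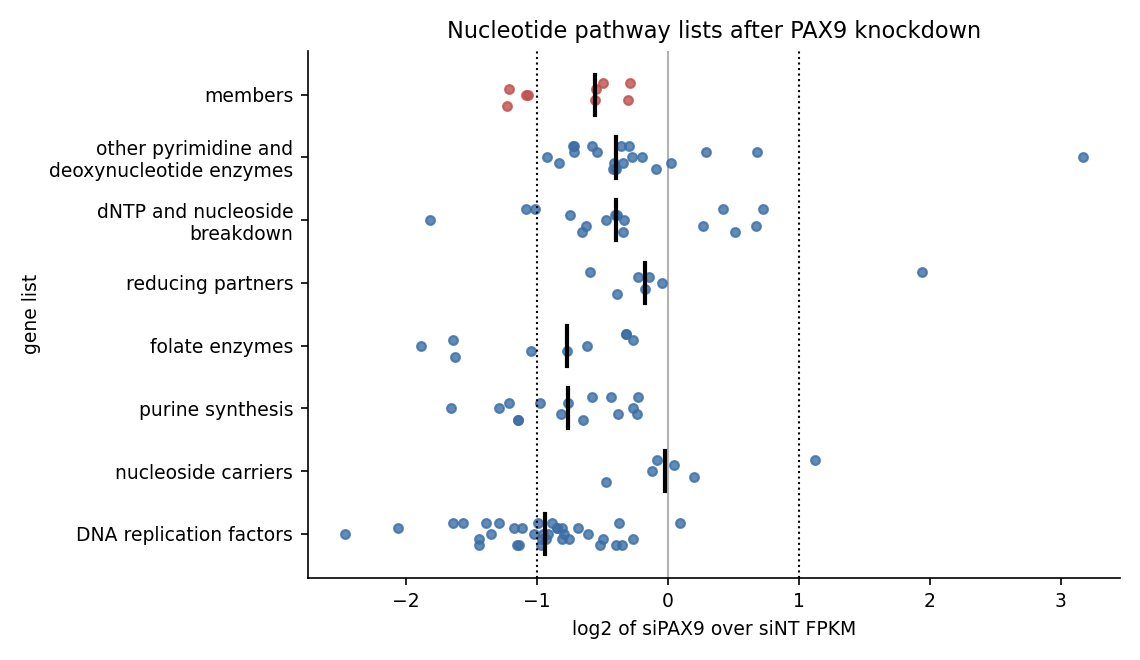
Log2 ratio of siPAX9 over siNT FPKM for each gene (points) of the 9 members (red) and of 7 other lists (blue), with the median of each list as a black bar and a fold of 2 as dotted lines; the vertical offset of points only separates them. All points of the members, folate and purine lists lie left of 0, and the point at 3.17 is CMPK2.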

How the data were processed

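RNA-seq of MCF10A cells covered 2 groups of 3 samples. The authors worked in Partek Flow, with Bowtie 2 as the aligner to hg19 and Cufflinks for quantification. No spliced aligner is named, and the normalization between libraries is not given in the sources used here. The deposited table holds 1 FPKM per locus and group, made by the authors from the 3 samples, and the authors' own fold changes, p-values and q-values, which were not used. It gives no counts, so the depth behind a value is unknown here.

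From these FPKM values the log2 ratio of siPAX9 over siNT was computed with no pseudocount, and a fold of 2, as in the study's methods, was counted. The background was every named locus reaching 1 FPKM in whichever group was higher, including loci listed at 0 in the other. Locus starts were raised by 1 to count from 1. Where a symbol had several rows, the row with the highest mean was kept. No test was run, since 1 value per group gives none and the authors' test results were not used. 1 ratio and 1 marker are not reported here. The counting was tested on simulated data.

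The genes named are the 9 members, PAX9, the partners in the ratios, genes of the other lists at a fold of 2 or more, and genes that share a member's position; RRM2B, DHODH, NME1, NME2, SHMT1, PPAT, SAMHD1, POLE2, CDA, the markers and the genes within 5000 bases of a member's row were added for context or after their values were seen. Members and lists were chosen with earlier results of these data known. Loci were matched with blastn 2.17.0 (word size 28) to GENCODE release 44 on GRCh37, which has the coordinates of hg19. Alternatives were 1 added to each FPKM, subtracting the median ratio of named loci (at 1 FPKM or more in both groups, or, added after seeing the data, in the higher group), summed rows, a fold of 1.5 or 4, and other backgrounds. Tables were made with Python 3.11.15, numpy 2.4.6 and pandas 2.3.3.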

Additional observations from a re-analysis of the deposited data

How the results depend on the processing

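The 9 log2 ratios stayed below 0 when they were centred on the median of named loci at 1 FPKM or more in both groups (-0.08), and 1 of them, DTYMK, moved across the 2-fold limit, to -0.99. Adding 1 to each FPKM cannot change a sign, and summing all rows of a symbol could change nothing, since each of the 9 has 1 row. Centring on the median of all background loci (-0.06), chosen after seeing the data, left DTYMK at -1.01 and 4 members at least 2-fold lower. The members' median was -0.53 with 1 added and -0.47 and -0.49 after the first and second centring. At a fold of 1.5, 4 members were lower, against 17.0% of named loci, and at a fold of 4, 0 were. With no minimum FPKM, 14.0% of named loci were at least 2-fold higher and their median was 0.011, and with a minimum of 10 these were 4.6% and -0.13. The median of the nucleoside carriers was 0.061 and 0.045 after the first and second centring (-0.02 without). After either centring and with 1 added, 3 folate genes (4 as reported) and 2 breakdown genes (3 as reported) were at least 2-fold lower, without MTHFD1L and NUDT1, and after either centring 13 DNA replication factors were (14 as reported), without ORC6. With 1 added, 0 nucleoside carriers were at least 2-fold higher, and 8 of the 36 DNA replication factors were at least 2-fold lower, with a median of -0.79. The cause was not tested, but adding 1 shrinks the ratios of low genes by construction. No paired analysis was possible because the table holds 1 pooled value per group, and for the same reason no replicate could be left out.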

Other observations

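Genes next to the members were read within 5000 bases of each row, a choice made after the table was seen. STIM1, a calcium sensor that ends 1475 bases before RRM1 and shares its row with MIR4687, was at 26.7 in siNT and 12.6 in siPAX9, a log2 ratio of -1.08 beside -1.22 for RRM1. AFMID, which lies 113 bases from TK1, was at 13.0 and 7.29, a log2 ratio of -0.83 beside -1.21 for TK1, while SYNGR2, 1151 bases away on the other side, was at 35.7 and 40.6. SLC5A6, a vitamin transporter that shares with ATRAID a cluster ending 212 bases before CAD, was at 12.8 and 5.00, a log2 ratio of -1.36 beside -0.49 for CAD, and ATRAID was at 56.7 and 40.2. ATG4B, 1886 bases from DTYMK, was at 12.0 and 12.4, a log2 ratio of 0.06 beside -1.07 for DTYMK. These are descriptions of pooled values with no test.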
